A study of Mus musculus with 9 samples.

Results

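The EGR family, Egr1, Egr2, Egr3 and Egr4, and the immediate early gene Arc were followed across mouse NIH 3T3 fibroblasts that carry a knockdown of Net or of Sap-1. The genes were picked by name, and each of the 5 had 1 probe set on the array with a single gene symbol, out of 19935 genes measured in that way. The groups were NetKD cells, which stably express an shRNA against Net, SapKD cells, which stably express an shRNA against Sap-1, and Control cells with the pLKO.1 vector. Each group held 3 biological replicates with 1 array each. All cells were plated on fibronectin, starved of serum overnight and lysed 1 hour after bovine serum was added. The plating time is given as 2 hours for all samples. The serum is given as 10% for the samples and as 20% for the series, and no group was taken before serum, so the induction of these genes by serum was not measured. The labels give neither the shRNA sequences nor the number of stable lines per group. If each group is 1 line, the tests below measure the spread within lines and do not cover differences between lines made independently.

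EGR proteins are transcription factors with a conserved DNA-binding domain of zinc fingers that reads a GC-rich site. Their genes are switched on within minutes when growth factors or serum activate ERK, because serum response factor (SRF) sits on CArG boxes in their control regions together with a ternary complex factor. The ternary complex factors are ETS proteins that ERK phosphorylates: Elk-1, Net, whose gene is Elk3, and Sap-1, whose gene is Elk4. Net is known as a repressor that phosphorylation turns into an activator. Arc encodes a cytoplasmic protein derived from a retrotransposon Gag protein, best known for its part in synaptic plasticity, and SRF, MEF2 and CREB act on its enhancer.

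Probe set levels are log2 values made by RMA, in which 1 unit is a doubling of the array signal. A gene was called changed when limma's adjusted p, over all 19935 genes of a comparison, was under 0.05. The 9 arrays had medians of 7.47 to 7.54 and maxima of 14.39 to 14.47, and the correlation over probe sets was 0.9981 to 0.9992 within groups. The mean level of 10 fibroblast markers was 12.36 to 12.39 on the NetKD, 12.34 to 12.35 on the SapKD and 12.38 to 12.44 on the Control arrays. In NetKD cells 2 of them, Pdgfrb and Fn1, were lower, by -0.14 and -0.13. In SapKD cells Col3a1 (-0.34), Thy1 (-0.32) and Col1a1 (-0.13) were lower and P4ha1 (0.54) was higher, and their part in the differences below was not tested. The mean level of 9 neuron markers was 7.22 to 7.28 on the NetKD arrays, 7.50 on the SapKD arrays and 7.47 to 7.52 on the Control arrays, and that of 7 T cell markers, another cell type known for EGR genes, was 6.29 to 6.42 over all arrays. The files hold no detection calls. Elk4, the SapKD target, was at 9.53 in SapKD and 11.07 in Control cells, a difference of -1.54 (SE 0.04, limma adjusted p = 9.2e-10). Elk3, the NetKD target, was at 11.08 in NetKD and 11.51 in Control cells (-0.42, SE 0.04, adjusted p = 1.1e-05). Elk4 was also lower in NetKD cells, by -0.44 (adjusted p = 2.3e-05), so the NetKD arrays carry lower mRNA of both factors. The protein of neither factor was measured.

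Promoter windows of RefSeq, build GRCm38.p6, were found for 2 of the 5 genes, Egr2 and Egr4, and cover 250 bases before to 50 bases after an annotated start. They are shown because both knockdowns lower an mRNA whose protein binds DNA beside SRF. Of 5 Egr2 windows, 4 held a CArG box, the SRF motif, and 3 of these overlap and share 1 box. A CArG box was present in 1.63% of the 32841 windows searched, on both strands. The table holds 32851, and those with letters other than A, C, G and T were left out. The Egr2 window at chr10:67537619-67537918 on the plus strand held one from -72 to -63 relative to the start, with an ETS core GGAA on the strand opposite to the printed one (seen as TTCC) 5 bases upstream. A CArG box with an ETS core within 10 bases, without overlap, was present in 0.438% of the windows searched, and an ETS core anywhere in 96.0%. A second Egr2 window, chr10:67537316-67537615, held another CArG box, whose last bases overlap an ETS core on the printed strand from -64 to -61, and no ETS core free of overlap within that distance. The Egr4 window at chr6:85513540-85513839 on the minus strand held no match to the CArG box, and it held 2 copies of the short CREB motif, TGACG on the strand opposite to the printed one (seen as CGTCA), a motif present in 20.8% of windows. The GC-rich EGR site GCGNGGGCG, present in 5.55% of windows, had no match in any of the 6. A match is a description of letters and not a measured site. Capitals mark CArG boxes, the adjacent ETS core and the short CREB motifs, which occur on both strands of the first window.
Egr2, window with an ETS core beside the CArG box: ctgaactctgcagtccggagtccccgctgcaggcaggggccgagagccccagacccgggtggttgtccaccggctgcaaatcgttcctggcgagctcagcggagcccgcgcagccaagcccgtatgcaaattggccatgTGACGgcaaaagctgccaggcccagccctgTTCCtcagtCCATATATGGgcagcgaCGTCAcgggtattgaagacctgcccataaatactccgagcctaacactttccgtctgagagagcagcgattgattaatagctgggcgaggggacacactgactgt
Egr2, window with an ETS core overlapping the CArG box: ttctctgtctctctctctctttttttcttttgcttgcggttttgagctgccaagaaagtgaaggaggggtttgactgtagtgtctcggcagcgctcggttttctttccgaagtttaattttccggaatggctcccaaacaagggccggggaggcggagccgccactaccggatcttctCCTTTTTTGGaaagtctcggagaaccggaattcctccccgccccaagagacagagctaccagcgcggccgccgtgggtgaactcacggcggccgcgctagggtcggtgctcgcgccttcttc
Egr4: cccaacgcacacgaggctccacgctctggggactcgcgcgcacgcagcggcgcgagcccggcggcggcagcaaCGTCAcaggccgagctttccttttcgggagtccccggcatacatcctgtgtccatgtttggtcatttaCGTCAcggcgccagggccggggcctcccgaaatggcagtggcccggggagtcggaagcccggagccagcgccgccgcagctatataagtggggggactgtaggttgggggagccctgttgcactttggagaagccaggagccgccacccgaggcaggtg

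In SapKD cells 4 of the 5 genes were lower than in Control cells and Egr1 did not pass the test, where 13.9% of all genes were called lower, 15.8% higher and 29.7% in either direction. Brighter genes were called more often. A fit of only the 9968 genes at or above the median mean level, which include all 5, called 2458 lower and 5429 in either direction. Arc and Egr4 fell by 0.98 and 0.95 on the log2 scale, and Egr3 and Egr2 by 0.33 and 0.24. For the same 4 genes no SapKD array reached a Control array, and groups were apart in this way for 41% of all genes. A lower signal in these cells can mean fewer transcripts in every cell or fewer cells that responded, which cannot be told apart in bulk RNA.

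Arc stood at 9.93, 9.83 and 9.81 on the SapKD arrays, against 10.73, 10.85 and 10.93 on the Control arrays. All 3 SapKD arrays lay below all Control arrays by a wide margin. The means were 9.86 ± 0.07 in SapKD and 10.84 ± 0.10 in Control cells (SD, n = 3 each), and Arc fell by 0.98 on the log2 scale (SE 0.06, 95% interval -1.10 to -0.85, limma adjusted p = 2.8e-07). That is a signal 49.3% lower, and only 0.838% of all genes had a larger fall.

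Egr4 encodes the family member that lacks the domain through which NAB corepressors bind the other EGR proteins. Its levels were 8.02, 8.18 and 7.87 on the SapKD arrays, against 8.94, 8.94 and 9.06 on the Control arrays. Again the groups were clearly apart, although the SapKD arrays scattered more than those of the other EGR genes. Egr4 averaged 8.02 ± 0.15 in SapKD and 8.98 ± 0.07 in Control cells and fell by 0.95 (SE 0.08, 95% interval -1.13 to -0.78, limma adjusted p = 4.5e-06), a signal 48.3% lower.

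Egr3, known for its role in muscle spindles and in T cells, was at 12.41, 12.39 and 12.42 on the SapKD arrays, against 12.70, 12.71 and 12.80 on the Control arrays. The 3 SapKD arrays were nearly equal and lay below every Control array. Egr3 fell by 0.33 (SE 0.04, 95% interval -0.42 to -0.24, limma adjusted p = 1e-04), a signal 20.2% lower.

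Egr2, also named Krox20 and known for hindbrain patterning and Schwann cell myelination, was at 12.88, 12.90 and 12.91 on the SapKD arrays, against 13.13, 13.14 and 13.12 on the Control arrays. Both groups varied little, and the gap between them was several times their spread. Egr2 fell by 0.24 (SE 0.04, 95% interval -0.32 to -0.16, limma adjusted p = 0.00045), a signal 15.1% lower.

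Egr1, also named Zif268 or Krox24, is the family member most often used as a reporter of ERK signalling. It stood at 13.26, 13.30 and 13.33 on the SapKD arrays, against 13.39, 13.44 and 13.33 on the Control arrays. One Control array was at the level of the highest SapKD array, so the groups met. The difference was -0.09 (SE 0.04, limma adjusted p = 0.17), with a 95% interval from a signal 12.2% lower to 0.512% higher. The call depends on the setting: Egr1 passed as lower after quantile normalization (-0.12, adjusted p = 0.037) and after subtracting the median change of its 50 nearest expressed genes on the chromosome (-0.15, adjusted p = 0.026). Egr1, Egr2 and Egr3 all lay within the upper part of the range of the arrays, where signals can flatten, and whether that made their differences smaller was not tested.

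**Figure D1:**
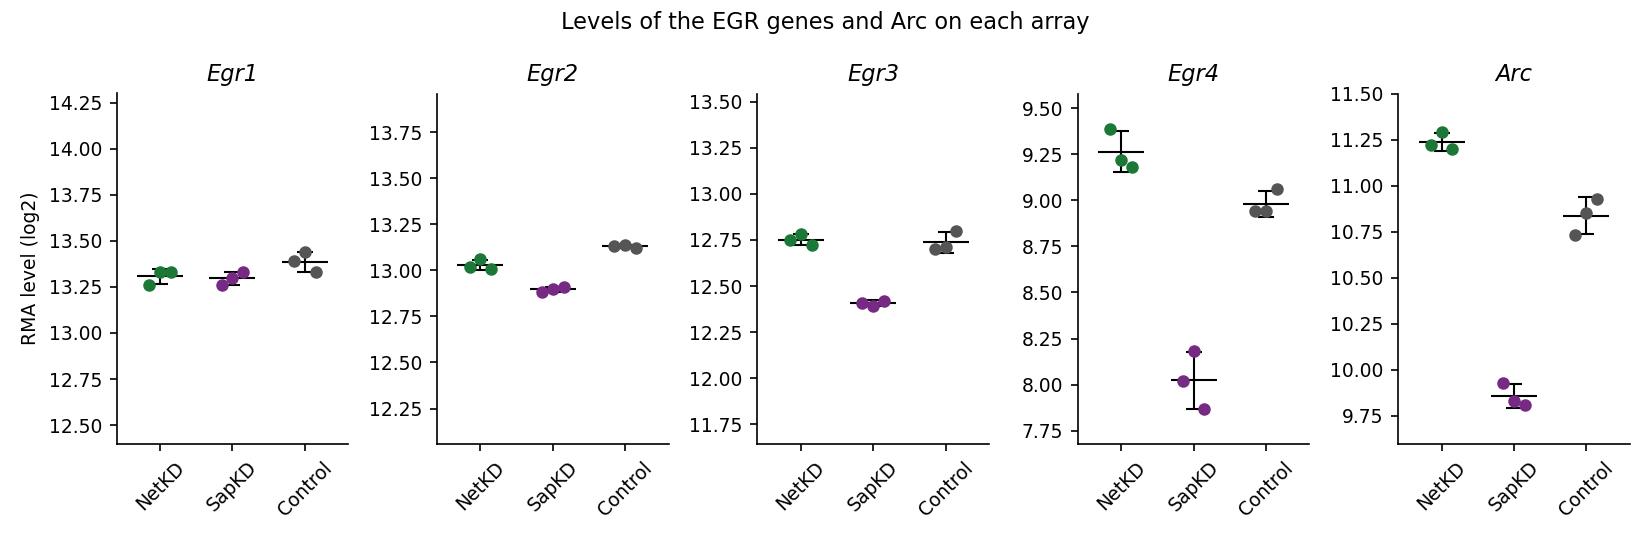
RMA level (log2) of each gene on every array; points are the 3 arrays of a group, long bars their mean and whiskers the SD, and each panel spans the same number of log2 units. Arc and Egr4 lie highest in NetKD, lowest in SapKD and between these in Control cells, while the Egr1 groups lie together between 13.26 and 13.44.

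In NetKD cells 2 of the 5 genes were called, Arc and Egr4, and both rose. Of all genes 13.4% were called higher, 10.2% lower and 23.6% in either direction. No member was called lower. With dim genes left out, 2643 of 9968 genes were called higher, 2084 lower and 4727 in either direction. Arrays did not overlap for 3 members, Egr2, Egr4 and Arc, against 34.3% of all genes.

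Arc was at 11.22, 11.29 and 11.20 on the NetKD arrays, all above the 10.73 to 10.93 of the Control arrays. It averaged 11.24 ± 0.04 in NetKD and 10.84 ± 0.10 in Control cells (SD, n = 3 each) and rose by 0.40 (SE 0.06, 95% interval 0.27 to 0.53, limma adjusted p = 0.00041), which is 1.32-fold. A larger rise was seen in 3.46% of all genes.

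Egr4 was at 9.39, 9.22 and 9.18 on the NetKD arrays, against 8.94 to 9.06 on the Control arrays. It rose by 0.28 (SE 0.08, 95% interval 0.11 to 0.46, limma adjusted p = 0.022), which is 1.22-fold, and replicate 1 of NetKD stood highest. This call is fragile. It was lost without NetKD replicate 1 (0.22, adjusted p = 0.081), without Control replicate 1 (0.26, adjusted p = 0.083), without Control replicate 2 (0.26, adjusted p = 0.077) and after subtraction of the neighbouring genes' median (0.20, adjusted p = 0.11).

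The other EGR genes did not pass in NetKD cells. Egr3 lay at 12.75, 12.78 and 12.72 on the NetKD arrays, inside the spread of the Control arrays, with a difference of 0.01 (SE 0.04, adjusted p = 0.88) and a 95% interval from a signal 5.18% lower to 7.45% higher. Egr1 lay at 13.26, 13.33 and 13.33, with a difference of -0.08 (SE 0.04, adjusted p = 0.26) and an interval from 11.5% lower to 1.31% higher. Egr2 lay at 13.02, 13.06 and 13.01, each below every Control array, with a difference of -0.10 (SE 0.04, limma adjusted p = 0.07). Under 5 other settings, 2 of them other array scalings, Egr2 passed as lower with differences of -0.10 to -0.12 and adjusted p of 0.0081 to 0.044. After subtraction of the neighbouring genes' median, itself -0.08 for Egr2 in NetKD cells, the difference was -0.02 (adjusted p = 0.72).

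Set against each other directly, NetKD cells were higher than SapKD cells for Arc, Egr4, Egr3 and Egr2, 4 of the 5 genes, where 14.2% of all genes were called higher, 13.3% lower and 27.5% in either direction. Arrays did not overlap for these 4 genes, against 37.4% of all genes. With dim genes left out, 2615 of 9968 genes were called higher, 2568 lower and 5183 in either direction. Arc was higher by 1.38 (SE 0.06, 95% interval 1.25 to 1.51, limma adjusted p = 1.5e-08), a 2.6-fold difference, and Egr4 by 1.24 (SE 0.08, 95% interval 1.06 to 1.41, adjusted p = 5.3e-07), a 2.36-fold difference. Only 0.647% of genes exceeded the Arc difference and 0.783% the Egr4 difference in that direction. Egr3 was higher by 0.34 (SE 0.04, adjusted p = 7.8e-05) and Egr2 by 0.13 (SE 0.04, adjusted p = 0.017). Egr1 differed by 0.01 (SE 0.04, adjusted p = 0.90), with a 95% interval from 5.78% lower to 7.82% higher. The Egr2 call was lost without NetKD replicate 2 (0.12, adjusted p = 0.055), without SapKD replicate 1 (0.13, adjusted p = 0.056) and after centring of the arrays on their medians (0.10, adjusted p = 0.089).

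**Figure D2:**
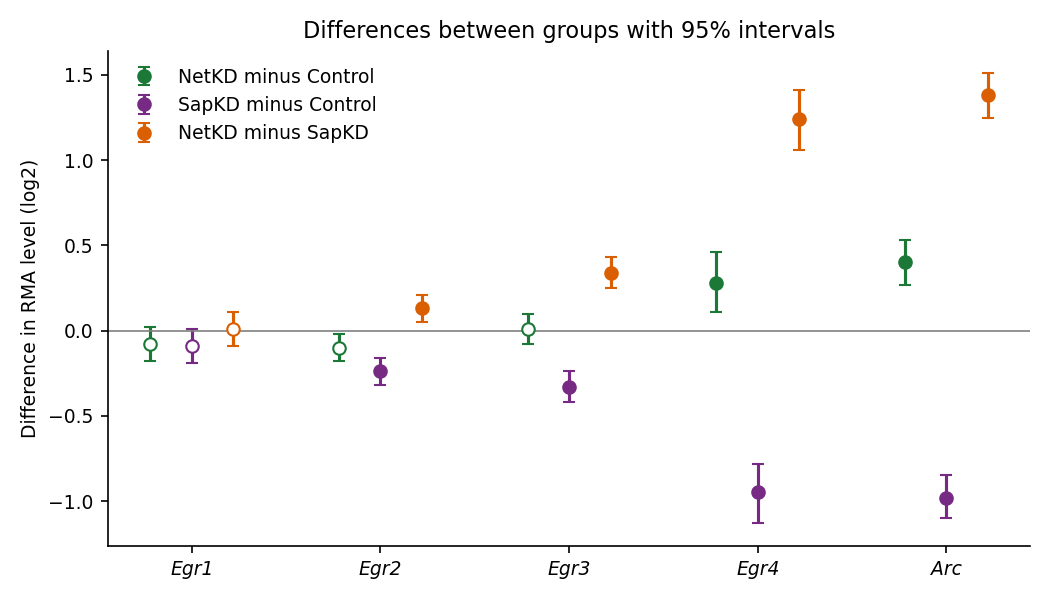
Difference in RMA level (log2) of each gene for the 3 comparisons, with 95% intervals from the limma fit; filled points passed an adjusted p of 0.05 and open points did not. Both comparisons with Control share the same Control arrays. From Egr1 to Arc the NetKD minus SapKD difference runs from 0.01 to 1.38.

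The order of the groups therefore differed by gene. Arc and Egr4 both ran from NetKD through Control to SapKD, with each neighbouring pair of groups past the test, though the Egr4 step between NetKD and Control is the fragile call above. Both comparisons with Control use the same 3 Control arrays and are not independent. For Egr3, NetKD and Control did not differ beyond their spread and SapKD lay below both. For Egr2, Control and NetKD were neighbours whose difference did not pass, and SapKD lay lowest. For Egr1 no difference between groups passed, though its call in SapKD cells depends on the setting, as given above.

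Whether the genes changed by unequal amounts was examined through the log2 difference of 2 genes within an array, a measure in which a scaling error common to all genes cancels. All 10 gene pairs were compared. In SapKD cells the log2 change of Egr1, which did not pass its own test, minus those of Arc and Egr4 was 0.89 and 0.86. The same signed differences in NetKD cells, where Arc and Egr4 rose, were -0.48 and -0.36. Egr4 and Arc overlapped in all 3 comparisons, with differences of 0.03 in SapKD cells against Control, -0.12 in NetKD cells against Control and -0.14 between NetKD and SapKD. With 3 arrays against 3 the two-sided exact permutation test cannot go below p = 0.10, and the smallest Benjamini-Hochberg adjusted value over the 10 pairs was 0.11 in SapKD and 0.14 in NetKD cells, each against Control, and 0.11 between the knockdowns. No pair passed.

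For the 4 genes called in at least 1 comparison, all but Egr1, the 3 closest genes were found by the Euclidean distance between profiles over 9 arrays, each profile being a gene's log2 levels minus its Control mean. Closest to Arc, whose own profile has a length of 1.84, were Tnfaip6, a hyaluronan-binding protein gene, at a distance of 0.25, the ERK feedback inhibitor gene Spry1 at 0.36 and Egr4 at 0.36. Closest to Egr4, with a length of 1.74, were the adhesion receptor gene Adgre5 at 0.31, Arc at 0.36 and the cGMP-dependent kinase gene Prkg1 at 0.36. Arc and Egr4 were thus each among the 3 closest genes of the other. Egr3 (length 0.57) was closest to Dab2ip, Gpr176 and Pcnx3 at 0.07 to 0.09, and Egr2 (length 0.45) to Cds2, Ldb1 and Fbln5 at 0.08 to 0.09. Genes annotated as other than protein-coding were passed over in this search. These distances are descriptions and were not tested.

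Genes that act upstream of the EGR genes were read from lists. Their counts, and those of the lists after them, stand beside 13.9% of all genes called lower and 15.8% higher in SapKD cells, and 10.2% lower and 13.4% higher in NetKD cells. The upstream, immediate early, EGR target, coregulator and Arc partner lists had median Control levels of 10.39 to 11.65, against 7.8 for all genes. With dim genes left out, 2458 of 9968 genes were called lower and 2971 higher in SapKD cells. In NetKD cells 2084 of these were called lower and 2643 higher. Of 7 ternary complex factor and SRF cofactor genes, 3 were lower in SapKD cells and 4 in NetKD cells, with none higher (list medians -0.12 and -0.22). These counts include the shRNA targets themselves, Elk4 in SapKD and Elk3 in NetKD cells. Srf itself was at 11.88 in SapKD, 12.08 in NetKD and 12.08 in Control cells, lower in SapKD by -0.19 (SE 0.05, limma adjusted p = 0.0085) and at 0.01 in NetKD cells (adjusted p = 0.96). Mrtfa, which encodes an actin-controlled SRF coactivator, was lower in NetKD cells by -0.22 (SE 0.04, adjusted p = 0.0028). Mrtfb was lower there by -0.39 (SE 0.12, adjusted p = 0.036). Elk3 was lower in SapKD cells by -0.12 (SE 0.04, adjusted p = 0.023). Elk1 did not pass in either line, at -0.08 in SapKD and 0.02 in NetKD cells.

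Among 24 measured RAS-ERK pathway genes, 9 fell and 3 rose in SapKD cells, and 8 fell and 5 rose in NetKD cells (list medians 0.00 and -0.04, beside -0.02 and 0.00 for all genes). Spry1 stood at 9.96 in SapKD, 11.22 in NetKD and 10.77 in Control cells, lower by -0.81 (SE 0.05, adjusted p = 2.4e-07) in SapKD and higher by 0.46 (SE 0.05, adjusted p = 4.1e-05) in NetKD cells. Dusp6, the gene of an ERK phosphatase, was lower by -0.13 in SapKD (adjusted p = 0.021) and higher by 0.34 in NetKD cells (adjusted p = 6.8e-05). The gene of the PDGF receptor alpha, Pdgfra, was lower by -1.74 in SapKD cells (SE 0.06, adjusted p = 4.2e-09), and Egfr, the EGF receptor gene, was higher by 0.56 in NetKD cells (SE 0.06, adjusted p = 7.5e-05) and lower by -0.41 in SapKD cells (adjusted p = 0.00036). The part of these receptor levels in the Arc and Egr4 differences was not tested.

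Of 9 CREB and MEF2 factor genes, 4 fell and 2 rose in SapKD cells, while 2 fell and 1 rose in NetKD cells (list medians -0.09 and -0.04). The 3 called in NetKD cells are a share near the 23.6% of all genes. Mef2c rose by 1.53 in SapKD cells (SE 0.05, adjusted p = 4.5e-09), the opposite direction to Arc, and by 0.18 in NetKD cells (adjusted p = 0.03). Crtc2, a CREB coactivator gene, was lower by -0.35 in SapKD cells (SE 0.05, adjusted p = 0.00022).

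Other immediate early genes were measured beside the EGR genes on the same arrays. Dusp1 and Srf among them are also counted in the RAS-ERK list and the SRF cofactor list above. Of 36, 15 fell and 3 rose in SapKD cells, with a list median of -0.11 beside -0.02 for all genes, whereas 5 fell and 7 rose in NetKD cells, with a median of 0.01. In SapKD cells Fosb, of the AP-1 family, was lower by -0.47 (SE 0.04, adjusted p = 7.9e-06) and the clock gene Per1 by -0.46 (SE 0.04, adjusted p = 7e-06), while Dusp1 was higher by 0.55 (adjusted p = 3.2e-06) and the orphan receptor gene Nr4a2 by 1.03 (adjusted p = 9.3e-08). In NetKD cells Nr4a3 was higher by 1.39 (SE 0.09, limma adjusted p = 1.4e-06), Nr4a2 by 0.82 (adjusted p = 1.3e-06) and Rgs2 by 0.64 (adjusted p = 1.2e-05). Nr4a3 also rose in SapKD cells, by 0.74, while Rgs2 was lower there by -0.34. Fosb (-0.37) and Dusp1 (0.32) moved in NetKD cells as in SapKD cells, and Per1 (-0.01) was not called there. Npas4, like Arc an activity-regulated gene of neurons, was lower by -0.66 in NetKD cells (SE 0.07, adjusted p = 6.8e-05) and by -0.59 in SapKD cells (adjusted p = 8.3e-05). Between the knockdowns 16 of the 36 were higher in NetKD than in SapKD cells and 3 lower (median 0.14, beside 0.02 for all genes, where 14.2% were called higher and 13.3% lower). Those with the smallest adjusted p were the signalling regulator gene Rgs2 (0.98, SE 0.06, limma adjusted p = 2e-07), Gem (0.68), Per1 (0.45) and Trib1 (0.48).

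**Figure D3:**
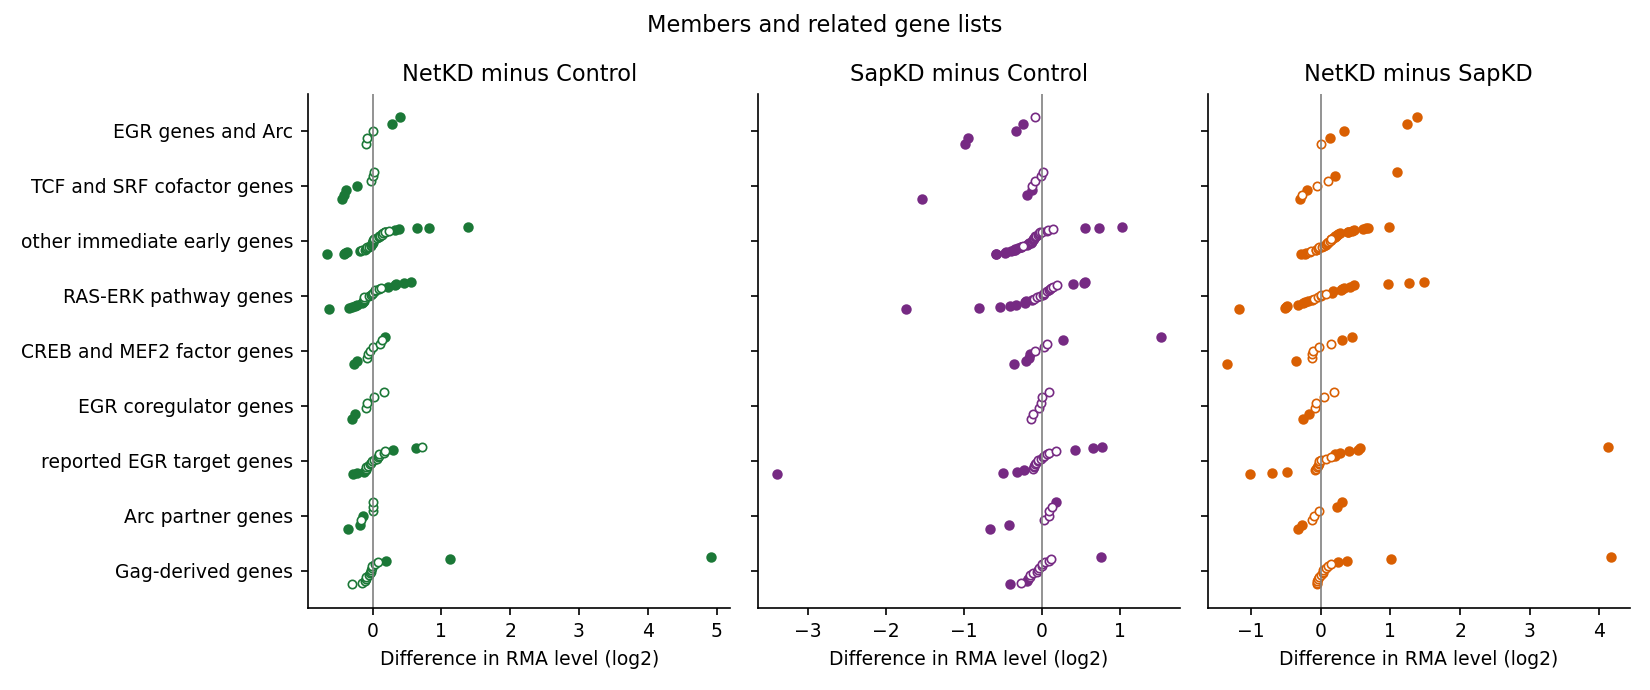
Difference in RMA level (log2) of the EGR genes and Arc and of every measured gene of 8 related lists, in the 3 comparisons; filled points passed an adjusted p of 0.05, open points did not, and points are spread vertically within a list for sight only. Among 36 other immediate early genes 15 were lower in SapKD cells, and Rtl3 stands out to the right among the Gag-derived genes in NetKD cells.

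In the comparisons with Control, genes downstream of EGR proteins were called at shares near those of all genes and below those of brighter genes. Of 20 measured genes reported elsewhere as EGR targets, 4 fell and 3 rose in SapKD cells (median -0.05) and 3 fell and 2 rose in NetKD cells (median 0.00), beside 29.7% and 23.6% of all genes called in either direction. Between the knockdowns more were called: 7 of the 20 were higher in NetKD than in SapKD cells and 3 lower, beside 27.5% of all genes in either direction. With dim genes left out, 5429 of 9968 genes were called in SapKD cells, 4727 in NetKD cells and 5183 between the knockdowns. The share between the knockdowns is close to that of the list. F3, the tissue factor gene, was lower by -0.50 in SapKD cells (SE 0.04, adjusted p = 4.5e-06), and Igf2 by -3.40 (SE 0.27, adjusted p = 3.7e-06), whereas Pdgfa was higher by 0.66 (SE 0.08, adjusted p = 5.3e-05) and the cyclin D1 gene Ccnd1 by 0.78 (SE 0.04, adjusted p = 9.8e-08). In NetKD cells Id3 was higher by 0.63 (SE 0.06, adjusted p = 2.4e-05) and Vegfa lower by -0.29 (adjusted p = 0.027). Of 6 EGR coregulator genes none was called in SapKD cells, and in NetKD cells the acetyltransferase genes Crebbp (-0.30, SE 0.05, adjusted p = 0.0017) and Ep300 (-0.26, SE 0.06, adjusted p = 0.0072) were lower. Nab1 and Nab2, the corepressor genes that EGR proteins induce as feedback, are members of both lists. Nab2 was at -0.01 in SapKD (adjusted p = 0.84) and -0.10 in NetKD cells (adjusted p = 0.12), and Nab1 at 0.10 and 0.02.

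Partners and relatives of Arc were also read. Of 7 measured genes of proteins that bind or modify Arc, 2 fell and 1 rose in SapKD cells and 3 fell in NetKD cells (list medians 0.10 and -0.14). The endophilin genes Sh3gl3 and Sh3gl1 were lower in both, by -0.67 and -0.42 in SapKD cells (SE 0.07 and 0.04) and by -0.36 and -0.19 in NetKD cells, so in NetKD cells they were lower where Arc was higher. Dnm2, the dynamin gene, rose by 0.19 in SapKD cells (adjusted p = 0.0034) and was lower by -0.14 in NetKD cells (adjusted p = 0.027). Of 16 measured genes that, like Arc, derive from retrotransposon Gag sequences, 3 rose in NetKD cells and none fell, while 1 rose and 3 fell in SapKD cells (list medians -0.03 in NetKD and -0.06 in SapKD cells). These counts are not above the 23.6% and 29.7% of all genes called. Rtl3 was at 11 in NetKD, 6.83 in SapKD and 6.07 in Control cells, higher by 4.92 in NetKD (SE 0.09, adjusted p = 2.2e-10) and by 0.76 in SapKD cells (SE 0.09, adjusted p = 7.6e-05). The Control level of Rtl3 lies below the array medians and among the levels of T cell markers in Control cells (5.10 to 7.55), so it may be background, and the size of both differences is then not an exact measure. Rtl9 rose by 1.13 in NetKD cells (SE 0.07, adjusted p = 1.3e-06), and Rtl1 was lower by -0.41 in SapKD cells (SE 0.06, adjusted p = 0.00034). Rtl8c, which has close copies and is uncertain, was at 0.19 in NetKD and -0.19 in SapKD cells.

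Markers of cell types known for Arc and EGR genes were read last. Of the neuron markers, in NetKD cells 3 of 9 fell and none rose, and in SapKD cells 2 fell and 1 rose. Map2 was at 6.96 in NetKD, 9.32 in SapKD and 8.56 in Control cells. It was lower by -1.60 in NetKD (SE 0.04, adjusted p = 8.1e-10) and higher by 0.76 in SapKD cells (SE 0.04, adjusted p = 8.8e-08). In each line Map2 had the opposite sign to Arc. The other called markers in SapKD cells, Snap25 (-0.42) and Dlg4 (-0.20), had the same sign as Arc. In NetKD cells Snap25 (-0.32) and Tubb3 (-0.29) were lower, opposite to Arc. The part of these markers in the Arc differences was not tested. None of 7 T cell markers was called by limma in any of the 3 comparisons. Of 4 Schwann cell markers, relevant to Egr2, Pmp22 rose by 0.13 in NetKD cells and none was called in SapKD cells.

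**Figure D4:**
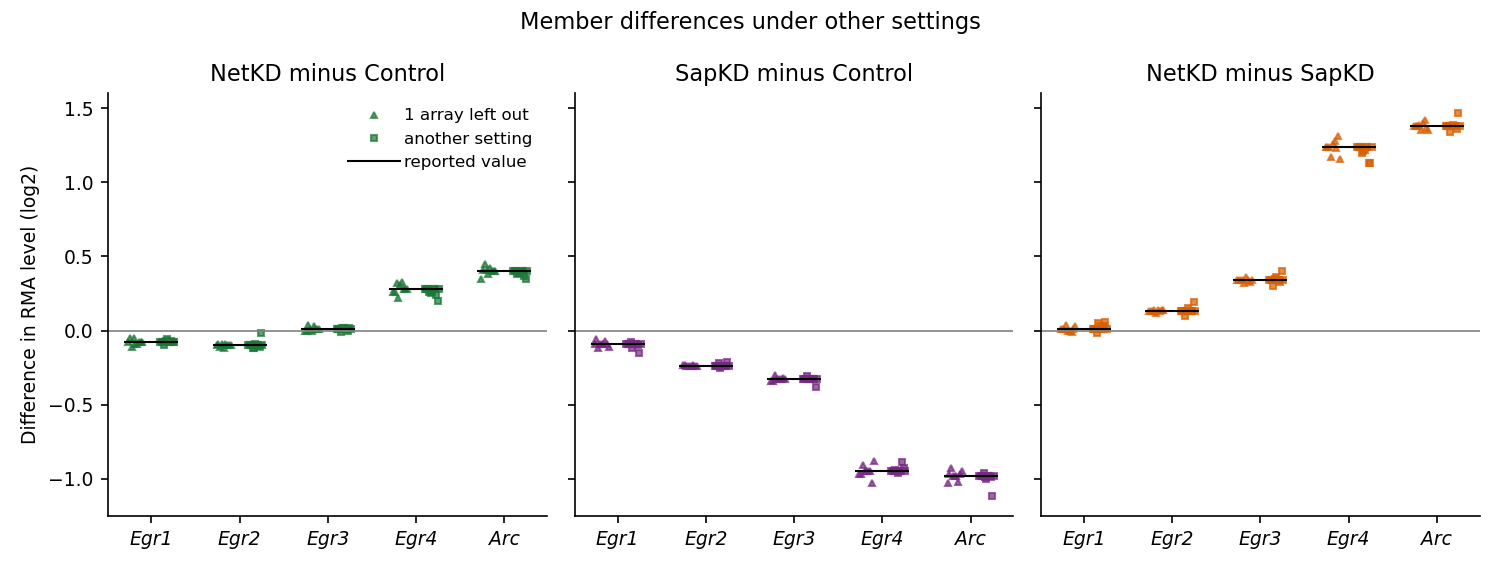
Difference in RMA level (log2) of each gene as reported (bars), with each of 9 arrays left out in turn (triangles) and under 11 other settings (squares). The Arc differences stay between -1.12 and -0.93 in SapKD and between 0.35 and 0.45 in NetKD cells, relative to Control. Only the other scalings, array weights, the neighbours' median and an array of a compared group left out can move a difference.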

How the data were processed

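The authors deposited log2 levels of 28815 probe sets on 9 Affymetrix mouse gene arrays. RMA and Expression Console are named in the submitters' processing notes as the tools behind them; version and settings are not given in the sources used here. RMA forces the arrays to a common distribution, so a change shared by most genes is removed, and it compresses differences of dim genes. Precision is limited by how few arrays there are.

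Probe sets with a single symbol in the platform annotation (21780) were named, with symbols updated by Entrez ID through a RefSeq table of GRCm38.p6, and the one with the highest mean per gene was kept, leaving 19935 genes. limma 3.58.1 in R 4.3.3 (lmFit, eBayes) fitted 1 mean per group over all 9 arrays, with Benjamini-Hochberg adjustment across all genes of each comparison; values are mean ± SD and SE of the fit.

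Members, lists, settings and the naming rule were all chosen with earlier results of these data known. Named were the 5 genes, Elk1, Elk3, Elk4 and Srf, and up to 4 called genes with the smallest adjusted p per list and comparison. For each member called at least once, the 3 genes of most similar profile were also named. Predicted genes, Riken clones, small RNA genes, olfactory or vomeronasal receptor genes and genes annotated as other than protein-coding were passed over there. Results were recomputed with a replicate block, with a trended and robust variance prior, on the 6 arrays of a comparison alone, and with 3 other scalings, dim genes left out, probe sets averaged per gene, array weights, the median of 50 expressed neighbouring genes taken off, an adjusted p under 0.01 and each array left out.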

Additional observations from a re-analysis of the deposited data

How the results depend on the processing

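The falls of Arc, Egr4, Egr3 and Egr2 in SapKD cells, the rise of Arc in NetKD cells and the differences of Arc, Egr4 and Egr3 between the knockdowns kept their direction and passed the test under all 11 other settings and with each of the 9 arrays left out. Other calls moved, and the cause of each move was not tested beyond what a setting itself changes. In NetKD cells against Control, the number of the 5 genes called was 1 in place of 2 with the neighbours' median taken off and at an adjusted p under 0.01, and 1 to 2 with an array left out, as Egr4 was lost (0.20 with the neighbours' median taken off, 0.28 at the stricter threshold, 0.22 to 0.33 with an array left out). Egr2 was called lower there with an intensity trend (-0.10), array centring (-0.12), quantile normalization (-0.12), dim genes left out (-0.10) and array weights (-0.11). Egr3 in NetKD cells, which was not called, turned to -0.01 with array centring and ranged from 0.00 to 0.04 with an array left out. In SapKD cells Egr1 passed after quantile normalization (-0.12) and with the neighbours' median taken off (-0.15). Between NetKD and SapKD cells Egr1, not called, was at -0.02 with array centring and -0.01 to 0.04 with an array left out, while Egr2 was lost with array centring (0.10) and at an adjusted p under 0.01 (0.13), and lay at 0.12 to 0.14 with an array left out.

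Replicate numbers are shared by the groups, but the labels state no pairing and the numbers were not taken as pairs. Deviations of same-numbered arrays correlated at -0.17 to 0.37, and those of differently numbered arrays at -0.43 to 0.24. The pairs of replicate 1 arrays were all positive, at 0.14 to 0.37. With a replicate block 4985, 6263 and 5752 genes were called in NetKD against Control, SapKD against Control and NetKD against SapKD cells, in place of 4714, 5921 and 5480, and no call of the 5 genes changed.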
